A study of Arabidopsis thaliana with 6 samples.

Results

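The 97 probe sets described here carried the strongest drops in transcript level when Arabidopsis thaliana seedlings were heated in darkness, apart from expansin, KCS (very-long-chain fatty acid) and core histone genes recognised by name. Each probe set reads 1 transcript, or several near-identical ones, through a set of short DNA strands fixed to the array. Members had to meet 2 conditions: a mean over the 3 heat arrays at least 1.5 log2 units below the mean over the 3 control arrays, and a highest heat value below the lowest control value. Of 22746 probe sets, 106 met both conditions (0.466%), and 9 of these were left out because their symbol or title named an expansin, KCS or histone gene, namely HTA13, HTB1, EXPA1, KCS19, EXPA4, KCS1, EXPA15, HTB2 and HTA2. The members were therefore selected on the heat-minus-control values, so these values are given below as a description and carry no test.

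RNA came from whole seedlings of the Col-0 accession, a standard laboratory strain, grown on solid Murashige and Skoog medium at 23 °C under 16 h of light and 8 h of darkness after 72 h at 4 °C in the dark. The dark control group held 3 arrays of seedlings kept in darkness without heat, and the dark heat group held 3 arrays of seedlings held at 37 °C for 30 min, also in darkness. The design text speaks of seedlings of 10 days, whereas the sample labels give 16, 17 and 18 days for the control arrays and 19, 20 and 21 days for the heat arrays, so labelled age and heat cannot be told apart. The light-treated groups named in the design were not analysed here, and nothing in the labels says that replicates came from separately grown plants. The p-values thus reflect how far these 6 samples scatter, and that scatter may be technical.

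Heat slows plant growth and shifts transcription toward chaperone genes. A transcript drops within a short treatment only if it is destroyed quickly, but decay was not measured here. Short-lived transcripts are common among transcription factors, hormone response genes and proteins that adjust metabolism to sugar and nitrogen supply. Other genes of growth act in the wall, where glycoside hydrolases, esterases and dirigent proteins modify polymers, or in chromatin, where histones H3.1 and H4 package newly copied DNA.

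Values throughout are log2 RMA values as deposited, and every difference is heat minus control on that scale. Pearson correlations between arrays over all probe sets were 0.976 to 0.988 within the control group and 0.989 to 0.991 within the heat group. The mean of the heat array medians was 0.11 log2 units below that of the control arrays, so a difference read against the array medians was 0.11 smaller in size. A limma fit across all probe sets called 909 lower (4.00%) and 533 higher (2.34%) at an adjusted p under 0.05, and 15.8% of all probe sets had every heat value below every control value. Of the members, 88 were among those called lower and 9 were not, from the contrast that chose them. The median difference was -1.73 over the members and -0.01 over all probe sets. In the other direction, 282 probe sets had differences of 1.5 or more without overlap.

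Levels of different probe sets also reflect how well each binds its target, so they rank signals and not transcript abundance. Control means ran from 3.62 to 8.73 with a median of 5.38, against a median of 2.90 over all probe sets, and all 97 lay above the median probe set. The rule requires room to drop, so this part of the range was to some degree set by it. After heat the means ran from 1.67 to 6.91 with a median of 3.44, and 74 of the 97 still lay above the median heat level of all probe sets. The lowest signal in both groups was that of AT2G28720 (control 3.62, heat 1.67), and the highest in both was that of BT2 (control 8.73, heat 6.91). A drop of 2 or more was shown by 19 members, and 50 had a drop under 1.75, so the module is dense near its limit and thin at its far end.

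**Figure D1:**
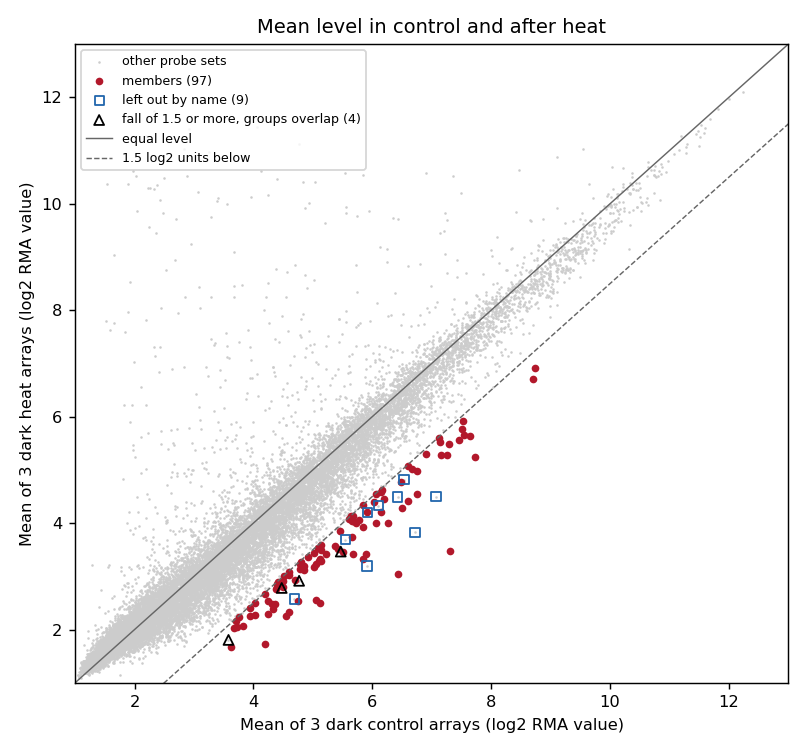
Mean log2 value of each probe set over the 3 control arrays (x axis) against the 3 heat arrays (y axis). The 97 members (red points) lie on or below the dashed line at 1.5 log2 units under equality and reach from a control mean of 3.62 to 8.73. Blue squares are the 9 probe sets left out by name, and open triangles the 4 whose groups overlapped.

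By gene identifier, 84 members matched 1 locus alone, 5 matched 1 locus plus an identifier with no match, and 8 were shared by several loci, which gave 108 distinct loci in all. A functional name was available for 51 members, and 46 had a locus number only. Locus-only members are named without a role, so the counts of members by role cover named members only.

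The largest drop belonged to DIN2, a beta-glucosidase known as a gene that rises in darkness and sugar shortage. DIN2 read 6.21, 6.35 and 9.39 on the control arrays and 3.65, 3.39 and 3.40 on the heat arrays, a difference of -3.83 (SE 0.76) or 14.3-fold. The heat values lay close together (SD 0.15), while control array 3 stood far above both other controls (SD 1.80). Without that array the difference was -2.8.

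GH9C2, an endoglucanase of the wall, read 5.76, 4.69 and 4.73 in control and 2.43, 2.39 and 2.83 after heat. The shared probe set of BGLU34 and BGLU35, also called TGG4 and TGG5 and known as root myrosinases, which cleave glucosinolates, read 6.72, 5.03 and 5.77 in control and 2.82, 4.37 and 2.8 after heat. The shared probe set of BGLU21 and BGLU22, beta-glucosidases known from roots, read 7.54, 5.87 and 6.83 in control and 3.69, 5.41 and 4.56 after heat. In both shared probe sets control array 2 was the lowest control and heat array 2 the highest heat value, and the groups were only 0.66 and 0.46 apart at their nearest. GH9C2 had no such split, with a gap of 1.86.

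Among the other glycoside hydrolases of families 1 and 9 that the authors' names identify, 61 probe sets were no members. Of these, 4 were called lower and none higher by limma, with a median difference of 0.01. BGLU15 (difference -0.93, limma adjusted p = 0.0185), BGLU33 (difference -1.24, adjusted p = 0.0203) and PYK10, the root beta-glucosidase of endoplasmic reticulum bodies (difference -1.17, adjusted p = 0.0287), fell. Their share, 6.56%, stands beside 4.00% over all probe sets.

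Wall, cuticle and glycan genes gave 6 members, with differences from -1.52 to -2.48. CDEF1, a cutin-cleaving esterase, read 4.23, 6.85 and 6.60 in control and 3.59, 3.28 and 3.36 after heat, so control array 1 stood well below the other controls. DIR6, a dirigent protein of lignan synthesis, read 6.47, 4.99 and 5.88 in control and 3.66, 4.69 and 3.82 after heat. SBT1.3, a subtilisin-like protease, read 5.39, 7.23 and 5.90 in control and 5.21, 4.08 and 4.57 after heat, with groups only 0.18 apart. XYLT, which adds xylose to N-glycans, was tighter, at 4.70, 4.11 and 4.32 against 2.70, 2.82 and 2.78. NST-K1, a nucleotide sugar transporter also called URGT4, and PME1, named as a pectin methylesterase inhibitor gene in the reference, had differences of -1.54 and -1.52. Of 34 other probe sets named for pectin enzymes, 2 were called lower, PME2 (difference -0.60, limma adjusted p = 0.0409) and SKS6 (difference -0.98, adjusted p = 0.0449), and none higher. The 2 are 5.88% of the list, beside 4.00% called lower over all probe sets.

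The exclusion by name acted on the authors' symbols and titles, so at least 5 probe sets of histones, those of H3.1 and H4, remained members. The names given for them there, HIS4 for 1 of them, hold none of the words left out. Locus-only members are given no role here, so further histone genes may be among them. One probe set shared by 5 loci of histone H3.1 read 5.20, 4.91 and 5.24 in control and 2.23, 2.53 and 2.71 after heat (difference -2.63, SE 0.16). The probe set with the largest drop among those shared by 8 loci of histone H4 read 7.47, 7.85 and 7.88 in control and 5.4, 5.03 and 5.32 after heat (difference -2.48, SE 0.16). Replicates lay close together in both, and the groups were 2.20 and 2.07 apart. The heat values of this H3.1 probe set all lay below the array medians.

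The same loci had 6 further probe sets that were no members. Of these, 3 for the H3.1 loci had differences of -1.49, -1.35 and -1.45, just short of the limit, and 2 for the H4 loci had -0.92 and -1.14. The sixth, for H3.1 loci, was at 0.04, with values of 1.55 to 1.95 on all 6 arrays, below the array medians of 2.78 to 2.95. Near-identical histone copies share these probe sets, so no drop can be given to 1 locus. Of all members, only these 5 had another probe set for the same locus.

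Transcription factor genes made up 12 members. HAM1, a GRAS-family factor that maintains shoot meristem cells, read 4.60, 4.36 and 4.70 in control and 2.14, 2.36 and 2.24 after heat (control 4.55 ± 0.18, heat 2.25 ± 0.11, SD, n = 3). HB5, a homeodomain-leucine zipper factor known in abscisic acid responses, read 4.66, 4.41 and 4.72 in control and 2.36, 2.04 and 2.58 after heat. BEE2, a basic helix-loop-helix factor named as an early brassinosteroid response gene, read 6.14, 6.13 and 6.54 in control and 4.10, 3.78 and 4.15 after heat. These 3 factors had differences of -2.30, -2.27 and -2.26 with SEs of 0.13 to 0.16, and their groups were 1.83 to 2.0 apart. All heat values of HAM1 and HB5 lay below the array medians of 2.78 to 2.95. NAC083, also called VNI2, a repressor of xylem vessel formation, read 6.56, 6.12 and 6.82 in control and 4.20, 4.09 and 4.60 after heat.

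The remaining factors had differences from -1.90 to -1.51. LBD38, a repressor of nitrate-responsive genes, read 6.26, 5.81 and 6.36 in control and 4.87, 4.56 and 4.30 after heat. MYB34, an activator of indole glucosinolate synthesis, read 4.59, 3.51 and 3.98 in control and 2.59, 2.63 and 2.24 after heat. GAI, a DELLA repressor of gibberellin growth responses, read 5.35, 4.47 and 5.42 in control and 3.59, 3.58 and 3.44 after heat. NF-YB2, a subunit of the CCAAT-box factor, and NAC6, a regulator of leaf senescence, had differences of -1.51 and -1.52. NAC6 rested on a high control array, with 4.30, 3.57 and 5.36 against 3.42, 2.60 and 2.66, and had a smallest difference of -1.04 with 1 array left out.

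Outside the members, called probe sets of these families are set against 4.00% lower and 2.34% higher over all probe sets. Of 66 other homeobox probe sets, 3 (4.55%) were called lower, among them ATHB13 (difference -1.44, limma adjusted p = 0.0152) and HB34 (difference -0.87, adjusted p = 0.0106). KNAT4 was the 1 called higher (difference 1.03, adjusted p = 0.000899). Of 124 other MYB probe sets, 3 (2.42%) were called lower and 5 (4.03%) higher. MYB28, an activator of aliphatic glucosinolate synthesis, fell (difference -1.11, adjusted p = 0.0128), and MYB7 rose (difference 2.12, adjusted p = 0.00857). Of 20 other LOB-domain probe sets, 2 (10%) fell, LBD39 (difference -1.15, adjusted p = 0.0273) and LBD21 (difference -0.73, adjusted p = 0.0311), and none rose. LBD37, which acts with LBD38 and LBD39 on nitrate-responsive genes, had a difference of -0.42 (SE 0.19).

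**Figure D2:**
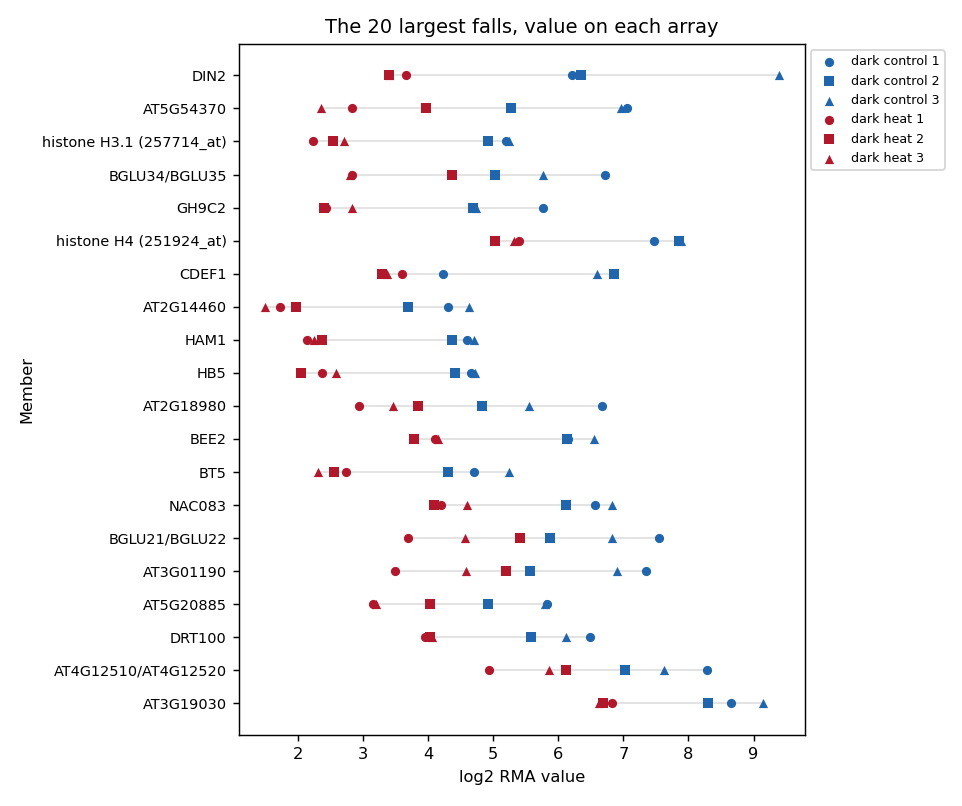
Log2 value on each array (x axis) for the 20 members with the largest drops (y axis, largest at the top), with control arrays in blue and heat arrays in red and marker shape giving the replicate. DIN2 has 1 control value at 9.39 far from the others, HAM1, HB5 and BEE2 have tight groups, and BGLU34/BGLU35, BGLU21/BGLU22 and AT3G01190 have control array 2 and heat array 2 nearest to each other.

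Of the 12 factor genes, 3 carry a conserved upstream open reading frame, a short peptide coded ahead of the main protein that in bZIP genes of the S1 group lets sucrose repress translation. bZIP2, with CPuORF1, read 7.30, 7.66 and 7.42 in control and 5.21, 5.94 and 5.52 after heat. bZIP1, with CPuORF4, read 5.97, 5.28 and 6.85 in control and 4.60, 4.50 and 4.11 after heat. CRF10, a cytokinin response factor with CPuORF53, read 4.99, 4.52 and 5.22 in control and 3.23, 3.53 and 3.32 after heat. The probe sets of all 3 also list the upstream frame under its own identifier.

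Values of relatives were looked up after the members were known, so they are listed without a test. Among 5 S1 bZIP genes, bZIP11 (under its symbol GBF6) had a difference of -0.67 (SE 0.20), bZIP53 0.12 (SE 0.19) and bZIP44 0.53 (SE 0.24), beside bZIP2 at -1.90 and bZIP1 at -1.63. Besides the 3 members, 20 probe sets were named for a conserved upstream peptide, and 16 of these had differences below 0, against 51.7% of all probe sets. Their median was -0.29, beside -0.15 over the 11373 probe sets above the median mean level. The lowest of the 20 was AT1G29950 with CPuORF34, at -1.01 (SE 0.21).

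BT2 and BT5 code for BTB-TAZ scaffold proteins, and BT2 is known to respond to sugar and nitrogen and to limit nitrogen use. BT5 read 4.70, 4.31 and 5.24 in control and 2.74, 2.55 and 2.31 after heat. BT2 read 8.76, 8.25 and 9.18 in control and 7.53, 6.64 and 6.56 after heat, 3.53-fold lower. Their relatives on the array had other values, with BT4 at 0.42 (SE 0.15) from control values of 7.62 to 8.13 and BT3 at 0.07 (SE 0.14) below the array medians.

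Hormone genes other than transcription factors supplied 8 members. ARR9, a type-A response regulator that dampens cytokinin signalling, read 4.23, 3.85 and 4.64 in control and 2.27, 2.37 and 2.25 after heat. The heat values lay below the array medians. Of 38 other cytokinin probe sets, 3 (7.89%) fell, beside 4.00% of all probe sets, and none rose. ARR4 (difference -1.47, limma adjusted p = 0.00109) and ARR7 (difference -1.45, adjusted p = 0.00413), both type-A regulators, lay just short of the member limit, and the cytokinin receptor gene WOL followed (difference -1.01, adjusted p = 0.0340).

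SAUR6, SAUR32 and SAUR59 belong to the small auxin-up RNA family of short-lived growth transcripts. SAUR6 read 7.11, 7.16 and 7.48 in control and 5.68, 5.07 and 5.06 after heat. SAUR32 read 4.8, 4.29 and 5.01 in control and 2.59, 3.01 and 3.18 after heat. SAUR59 read 4.12, 4.29 and 5.05 in control and 3.06, 3.07 and 2.62 after heat. Besides these 3, 52 SAUR probe sets were measured, and 26 of them had differences below 0, against 51.7% of all probe sets. At the far end from the members stood SAUR35 (AT4G12410), with a difference of 3.47 (SE 0.11) from 2.19, 2.35 and 2.12 in control to 5.68, 5.67 and 5.72 after heat. SAUR56 (AT1G76190) came next, at 1.13 (SE 0.13). Nearest to the members stood SAUR55 (AT5G50760) at -1.41 (SE 0.44) and SAUR14 (AT4G38840) at -1.22 (SE 0.19). Of the 52, 34 read under 3 on every array, where little room was left for a drop of the member size. The count of 26 mixes these with probe sets of higher signal, so it does not describe the latter alone.

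UGT74E2, which glycosylates the auxin precursor indole butyric acid, read 5.55, 4.14 and 6.57 in control and 2.97, 3.83 and 3.73 after heat, and its groups were only 0.31 apart. MARD1, an abscisic acid-related dormancy gene, read 5.58, 4.28 and 5.20 in control and 3.14, 3.28 and 3.90 after heat. CIPK15, a calcineurin B-like interacting kinase, and BRH1, a RING-finger gene that responds to brassinosteroid, had differences of -1.64 and -1.5. Of 18 other probe sets named for brassinosteroids, 1 fell (5.56%, beside 4.00% of all probe sets), BR6OX2, a late enzyme of brassinosteroid synthesis (difference -1.05, limma adjusted p = 0.00934).

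Beside GAI, 24 other probe sets were named for gibberellin, of which 20 were not called. They held 1 that fell (4.17%, as against 4.00% of all probe sets), GASA4 (difference -0.65, limma adjusted p = 0.0276), and 3 that rose (12.5%, as against 2.34%), GA3OX1, which makes active gibberellin (difference 1.53, adjusted p = 0.00245), GASA1 (difference 0.85, adjusted p = 0.0150) and GAMT2 (difference 1.63, adjusted p = 0.0195). Among 5 DELLA genes, RGA1 came closest to GAI, with 5.12, 4.63 and 5.41 in control, 3.55, 3.55 and 3.62 after heat and a difference of -1.48 (SE 0.19), just outside the limit. RGL1, RGL2 and RGL3 read under 2.5 on all arrays.

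Polyamine genes gave 3 members. ADC1, an arginine decarboxylase that starts putrescine synthesis, read 5.53, 5.46 and 5.37 in control and 4.35, 3.19 and 3.99 after heat. PAO4 and PAO5, polyamine oxidases that convert larger polyamines back to smaller ones, read 6.31, 5.20 and 5.64 and then 4.99, 4.65 and 4.90 in control, against 4.16, 4.15 and 3.70 and then 3.24, 3.21 and 2.92 after heat. PAO5 had the tighter groups, with SDs of 0.17 and 0.18.

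Another 9 polyamine probe sets were looked up afterwards, and 6 of them had differences below 0, against 51.7% of all probe sets. Their median was -0.26, beside -0.15 over the 11373 probe sets above the median mean level. ADC2, the other arginine decarboxylase gene, had -0.77 (SE 0.14) from a higher level, and SAMDC, for S-adenosylmethionine decarboxylase, -0.52 (SE 0.12). PAO2 went the other way, from 3.64, 3.32 and 3.28 in control to 4.71, 4.89 and 5.14 after heat (difference 1.5, SE 0.16), and its 3 heat values all lay above its control values. The oxidase genes thus held both directions, with PAO3 at -0.30 and PAO1 at 0.14 in between.

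Of the 3 transport members, GDU4, a glutamine dumper protein that promotes amino acid export, read 6.01, 5.4 and 5.59 in control and 3.66, 3.50 and 4.02 after heat, 3.82-fold lower. SIAR1, an amino acid transporter also called UMAMIT18, read 5.86, 5.70 and 5.46 in control and 4.24, 4.32 and 3.85 after heat. OCT5, an organic cation transporter, read 4.30, 3.52 and 4.27 in control and 2.57, 2.14 and 2.11 after heat. Of the other glutamine dumper genes on the array, GDU1 and GDU2 had differences of -0.60 and -0.51 from control values of 2.47 to 3.15, and GDU7 had 0.06.

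**Figure D3:**
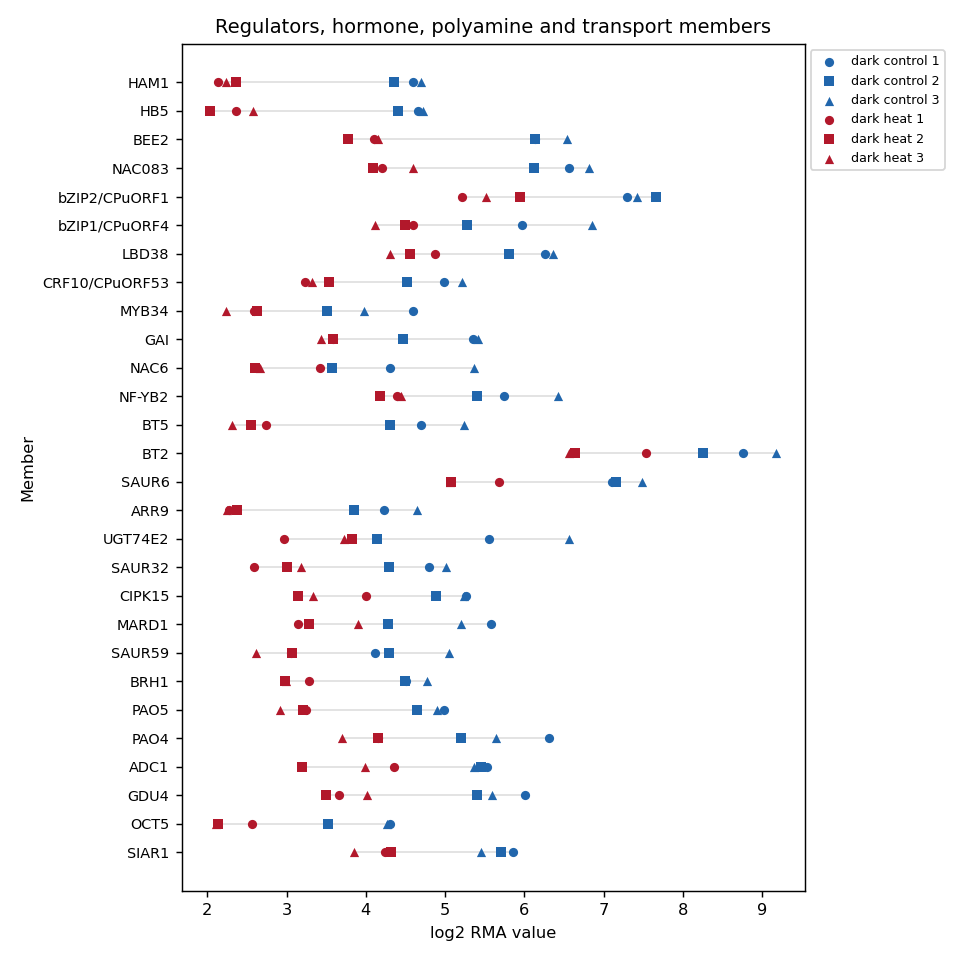
Log2 value on each array (x axis) for the transcription factor, BTB-TAZ, hormone, polyamine and transport members (y axis, by group and then by size of drop), control arrays in blue and heat arrays in red. Red and blue never overlap, as the rule requires. The gap is narrowest for NAC6 and UGT74E2 and widest for HAM1 and BEE2.

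The other named members had varied roles. DRT100, a leucine-rich repeat protein named for DNA-damage tolerance, read 6.49, 5.58 and 6.11 in control and 3.95, 4.03 and 4.05 after heat. RTFL8, one of the small ROTUNDIFOLIA-like peptides that limit cell proliferation, read 4.61, 3.90 and 4.59 in control and 2.47, 2.33 and 2.64 after heat. GSTU1 (a glutathione transferase), DAFL1, ATB' DELTA (a regulatory subunit of protein phosphatase 2A), LRR1, PGR3 (a plastid pentatricopeptide repeat protein) and ERF1-1 (a translation release factor, not an ethylene response factor) had differences from -1.80 to -1.51.

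Locus-only members reached from -3.39 to -1.5, with a median of -1.73, equal to that of all members. AT5G54370 had the second largest drop of all, from 7.05, 5.27 and 6.97 in control to 2.82, 3.96 and 2.35 after heat. AT2G14460 read 4.30, 3.68 and 4.63 in control and 1.72, 1.96 and 1.49 after heat, with all 3 heat values below the array medians. AT3G19030 read 8.66, 8.30 and 9.15 in control and 6.83, 6.68 and 6.62 after heat. In all 3 the groups were more than 1.3 apart.

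Another 4 locus-only probe sets complete the 20 largest drops. AT2G18980 read 6.67, 4.82 and 5.55 in control and 2.93, 3.84 and 3.45 after heat. AT3G01190 read 7.34, 5.57 and 6.90 in control and 3.49, 5.20 and 4.58 after heat, and the probe set shared by AT4G12510 and AT4G12520 read 8.29, 7.02 and 7.62 against 4.94, 6.12 and 5.86. AT5G20885 read 5.82, 4.91 and 5.79 in control and 3.15, 4.02 and 3.19 after heat. All had control array 2 as their lowest control and heat array 2 as their highest heat value.

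The low control array 2 was shared beyond these probe sets. Control array 2 was the lowest control array for 75 of the 97 members (77.3%), against 57.8% of the 11373 probe sets above the median mean level. On that array the members read a median of 0.56 below the mean of the other control arrays, against 0.20 below for the 11373. Within the heat group no array stood out for the members as a whole, with heat array 2 the highest for 38, heat array 1 for 36 and heat array 3 for 23. Among the 11373 probe sets, heat arrays 2, 1 and 3 were the highest for 36.3%, 38.2% and 25.5%. The spread was larger in control than after heat for 71 of the 97 members and for 62.1% of all probe sets. Median SDs were 0.44 and 0.24 over the members against 0.18 and 0.14 over all probe sets, which include many with low signal.

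Markers of cell types were read on the same arrays. Leaf mesophyll markers were high throughout, with a summed level of 12.72 to 13 in control and 12.73 to 12.90 after heat, and 0 of 5 were called. Root hair markers (0 of 6 called, summed level 4.64 to 4.91 in control and 4.69 to 4.91 after heat) and root cap markers (0 of 3 called, 3.30 to 3.33 and 3.26 to 3.44) had single values of at most 2.8, below the highest array median of 2.95. Pollen markers (3.63 to 3.83 and 3.75 to 3.86) and seed storage markers (3.59 to 4.04 and 3.89 to 3.99) were low in both groups, as were shoot meristem markers (3.89 to 4.42 and 4.04 to 4.25), with 0 of 4 called in each list. Stomatal markers (0 of 8 called, 5.93 to 6.27 and 5.86 to 5.97), shoot epidermis and trichome markers (0 of 6, 6.59 to 7.45 and 6.43 to 7.14) and vascular markers (0 of 5, 6.99 to 7.10 and 6.91 to 7.14) were measured in both groups.

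Markers of root cortex, endodermis and stele differed most between arrays. Their summed level was 6.02 to 7.54 in control and 5.58 to 6.37 after heat, and 1 of 5 was called lower, SCR, a GRAS factor of the endodermis (difference -1.09, limma adjusted p = 0.0130). CASP1, which builds the Casparian strip of the root endodermis, read 6.73, 4.61 and 6.26 in control and 4.10, 5.64 and 5.49 after heat (difference -0.79, SE 0.60, adjusted p = 0.493). PHO1, a phosphate exporter of the root stele, read 5.53, 3.65 and 4.50 in control and 3.29, 3.85 and 3.44 after heat (difference -1.04, adjusted p = 0.215), while SHR and SKOR had differences of -0.20 and -0.04. CASP1 thus had the same low control array 2 and low heat array 1 as BGLU21/BGLU22 and AT3G01190. The shoot epidermis marker PDF1 varied as much between arrays in the opposite direction. PDF1 read 4.54, 6.79 and 5.64 in control and 6.02, 4.44 and 5.65 after heat (difference -0.29, SE 0.595). The next largest SE in its list was 0.28, for ATML1. In whole-seedling RNA, fewer cells of a type and less RNA per cell cannot be told apart.

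As a description over the 6 arrays, with each group centred on its own mean, members were set against CASP1. The reading rests on CASP1 alone, and its root list did not order the arrays alike. PHO1 and SHR also had control array 2 and heat array 1 lowest in their groups. SCR had heat array 1 highest (3.36, 2.94 and 2.77 after heat), and SKOR had control array 2 highest (2.44, 2.51 and 1.74 in control). A Pearson r of 0.8 or more was found for 20 of the 97 members (20.6%) and for 10.4% of the 11373 probe sets above the median mean level. The points share their arrays, and centring leaves 4 independent values. The r values were 0.98 for AT3G01190, 0.96 for AT4G12510/AT4G12520, 0.93 for BGLU21/BGLU22 and 0.87 for DIR6, whereas DIN2, BEE2 and BT2 had 0.16, 0.02 and -0.05. SBT1.3 and AT1G70200 ran the other way, both at -0.97. The part of root tissue share in these drops was not tested.

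How far each drop rested on 1 array was read by leaving out each in turn. The drop stayed at 1.5 or more under all 6 omissions for 49 members, and 48 slipped under 1.5 in at least 1. Without control array 3, 23 members slipped, and without control array 1, 21. Without control array 2 only 5 did, and the whole rule then admitted 195 probe sets, 92 of them members. That array was the lowest control for 75 members, whose drops could only grow without it.

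Only 3 members came closer to 0 than -1 in any omission. AT2G04050 read 2.22, 2.60 and 6.32 in control and 1.92, 2.08 and 2.11 after heat, and its difference without control array 3 was -0.38. AT2G41730 read 5.47, 5.92 and 8.04 in control and 4.35, 5.11 and 4.88 after heat, and its smallest value was -0.92. AT3G57010 read 6.89, 4.33 and 5.60 in control and 3.82, 4.30 and 4.12 after heat, with groups 0.03 apart and a smallest value of -0.88. Control array 3 was high in the first pair, and control array 1 in AT3G57010.

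**Figure D4:**
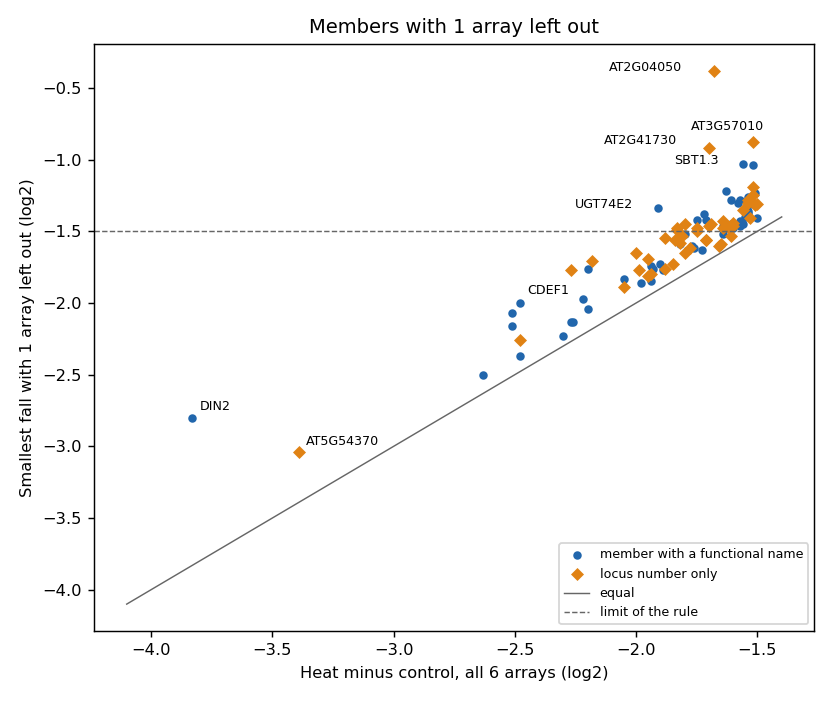
Difference over all 6 arrays (x axis, log2) against the smallest drop found when 1 array was left out (y axis, log2) for the 97 members. Blue points are members with a functional name and orange diamonds those with a locus number only. Points on the solid line would not depend on any array, and the 48 above the dashed line slipped under 1.5, with AT2G04050 at -0.38 the farthest.

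The limit itself separated probe sets with nearly equal values. Just inside lay BRH1 (-1.502), AT3G23880 (-1.503) and AT4G22190 (-1.515). Just outside, without overlap, lay AT3G62270 (-1.498), AT5G17820 (-1.497) and AT5G11070 (-1.496). Another 4 probe sets had drops of 1.5 or more with overlapping groups, XTH19 (-2.0), AT5G10130 (-1.85), ABCB4 (-1.77) and AT5G60530 (-1.69). In each of these 4, control array 2 was the lowest control and heat array 2 the highest heat value.

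Few members were neighbours in the reference gene order. The tandem pairs AT1G66270/AT1G66280 (BGLU21/BGLU22), AT4G12510/AT4G12520 and AT5G10390/AT5G10400 (histone H3.1) each shared a probe set, so their drops are 1 measurement. Pairs with separate probe sets within 3 genes of each other were AT2G28720 and the H4 locus AT2G28740, AT3G57010 and ARR9, and CDEF1 and AT4G30170.

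**Figure D5:**
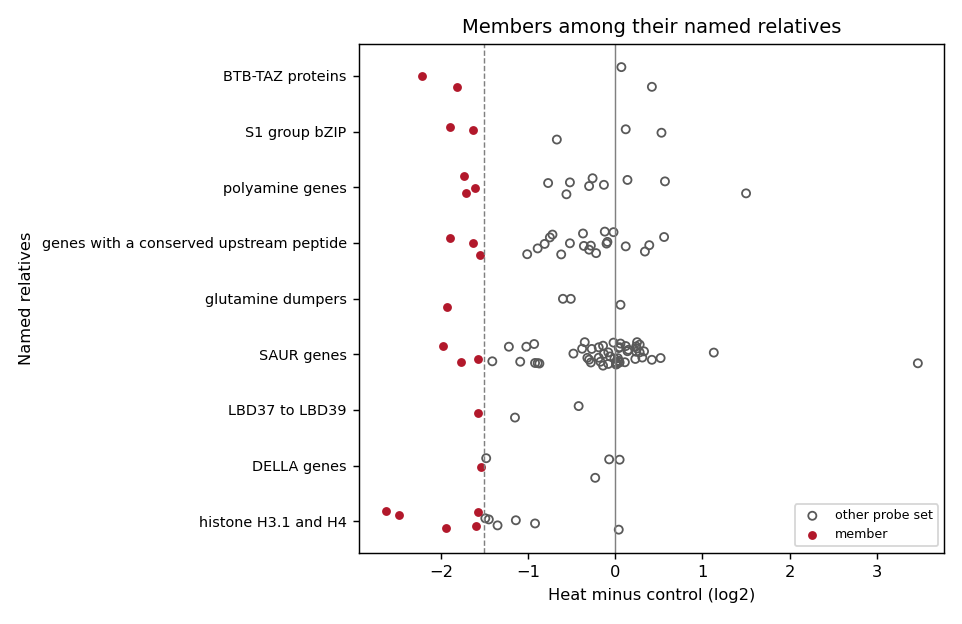
Heat-minus-control difference (x axis, log2) of the probe sets named as relatives of members (y axis, 1 row per list), members in red and others as open circles, with vertical jitter only. Histone H3.1 and H4 probe sets lie below 0 except 1 at 0.04, while the 55 SAUR probe sets spread from -1.98 to 3.47 and the polyamine genes from -1.73 to 1.5.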

How the data were processed

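The matrix held log2 values on 6 arrays, which the authors deposited after RMA, per the submitters' processing notes, with software, version and background step not given in the sources used here. A second table from the authors gave gene names and linear ratios of each heat array over the control array of equal number, which matched the deposited log2 values to a relative gap of 6.3e-05; its ratio columns were used for that check only. Array medians lay between 2.78 and 2.95. Precision is limited by the number of arrays, which have no read depth, and no detection calls were used.

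After removal of 64 AFFX controls, 22746 probe sets were fitted with lmFit and eBayes of limma 3.58.1 under R 4.3.3 (1 term for group, two-sided, Benjamini-Hochberg over all 22746, threshold 0.05). Every SE is limma's. The fit was tested on simulated data. Loci and symbols came from the authors' identifiers and a RefSeq table of TAIR10.1; no coordinates are printed. The members and lists were chosen with earlier results of these data known. Named members are the 20 largest drops, up to 3 per family and 2 per other role, and the neighbours of the limit. Further members, relatives and the CASP1 reading were chosen after values were seen. Families were found by keywords in the authors' symbols and titles; 15070 probe sets have no symbol there, so families are incomplete. In each described family, up to 2 genes with the lowest and 1 with the highest adjusted p past the threshold could be named. One marker, CO2, had no matched probe set. Alternatives were other scalings, filters, moderation settings, a replicate block, array weights and each array left out.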

Additional observations from a re-analysis of the deposited data

How the results depend on the processing

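All 97 members kept a difference below 0 under median centring, quantile normalization, cyclic loess and each of the 6 omissions of an array. For the omissions this was fixed in advance, as the rule puts every heat value below every control value. Nor could the shift of 0.11 between array medians undo a drop of 1.5. By more than their replicate SD, 2 members moved, PAO5 (-1.55) and BRH1 (-1.33), both under cyclic loess. The median member difference was -1.62, -1.63 and -1.57 under these 3 scalings and -1.64 to -1.96 with 1 array left out. The rule admitted 65, 65 and 60 probe sets under the scalings (65, 65 and 59 of them members), 83 to 195 with 1 array left out, 422 at a drop of 1 or more and 19 at 2 or more. Without dark control replicate 2 it admitted 195.

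The limma count of lower probe sets was 909, with 275 to 2719 when 1 array was left out (2719 without dark control replicate 2), 2342 with array weights and 410 with the replicate block. The count of higher probe sets was 533, with 371 to 1008 when 1 array was left out (1008 without dark control replicate 2), 857 with array weights and 396 with the replicate block. Deviations of equal-numbered arrays from their group means correlated at -0.26, -0.24 and -0.24. With so few arrays, these values cannot show whether arrays of equal number were paired. Scaling moved the split of calls, from 909 lower and 533 higher to 679 and 671 (median centring), 871 and 677 (quantile) and 688 and 713 (cyclic loess). The causes were not tested. Counts of lower family probe sets stayed within 1.5 times in 64 comparisons, were smaller in 37 and larger in 19, the latter including names taken also from the reference, an alternative chosen after seeing the data. Promoter motif shares were not run, as no promoter sequences were used here. Low values leave little room for a drop, and differences that end below the array medians depend on the background step.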
